A study of Rattus norvegicus with 10 samples.

Results

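The genes described here are the Cdc25 phosphatases Cdc25a, Cdc25b and Cdc25c and the kinases that oppose them, Wee1 and Pkmyt1 (which encodes Myt1). All probe sets that the platform annotation assigns to 1 of these 5 symbols alone were taken. This gave 6 probe sets for 4 genes, out of 31042 probe sets and 14217 genes with a probe set of their own on the array. Cdc25a and Wee1 had 2 probe sets each, Cdc25b and Pkmyt1 had 1 each, and no probe set was assigned to Cdc25c, which was not analysed here. The set was chosen from the measured change of Cdc25b, which was lower in the final sample of all 5 tumors and had the smallest p of any named gene. The comparison of final with basal samples was therefore used in choosing the genes, and their changes are given below as a description, with no test. Mki67, the gene of the proliferation marker Ki-67, is set beside them.

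The RNA came from mammary tumors of female Sprague-Dawley rats that were given 100 mg/kg of the mammary carcinogen 7,12-dimethylbenz(a)anthracene (DMBA) once by mouth. The basal group (n = 5) held needle biopsies taken without drug treatment at 12 weeks of age, when a tumor had reached 2 cm3. The final group (n = 5) held the same tumors at sacrifice at 19 weeks, in the 7th week after biopsy. The tumors, picked by histological grade per the design text, carry the codes 09I1, 11D2, 12I1, 29I1 plus 43D1. In between, the rats had received adriamycin (doxorubicin, a topoisomerase II poison) into the tail vein at 1 mg/kg per week for 6 weeks. Every final sample differs from its basal sample in drug and age at once, and no tumor sampled late without drug was analysed here. The final samples are whole tumors by their labels and needle biopsies by the design text. Array codes run in a separate series in each group, so array handling and group cannot be told apart. Nothing in the labels says whether the 5 tumors grew in 5 different rats, so errors refer to tumors and not to rats. Errors marked as limma SE come from the model described below, which also draws on the variance of other probe sets. They can lie below or above the plain SE over tumors. The limma and plain SE were 0.56 and 0.73 for Mki67, and 0.15 and 0.08 for the brighter Cdc25a probe set.

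Cyclin-dependent kinases such as Cdk1 are held inactive by phosphates on a threonine and a tyrosine next to their ATP site. Wee1, in the nucleus, phosphorylates the tyrosine, and Myt1, bound to membranes of the endoplasmic reticulum and Golgi, can phosphorylate both residues. The Cdc25 phosphatases remove these phosphates and so start S phase and mitosis. Cdc25a acts from late G1 onwards, and Cdc25b is held to act early in G2 and at the centrosome. Checkpoint kinases that respond to damaged DNA phosphorylate Cdc25 proteins, which leads to their destruction or to their retention by 14-3-3 proteins. Much of this control acts on the proteins, which arrays do not measure.

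The reference promoter of Cdc25b is shown because its message had the largest change of the members. It is the window of 250 bases before the start given in a RefSeq promoter table (assembly GRCr8), printed 5′ to 3′. That start lies inside the gene model of the same assembly, so that the last 25 bases of the window belong to the gene model. Capitals mark a CCAAT box (CCAAT), a CHR-type element (TTTGAA or TTCGAA, letters of the kind bound by cell cycle repressor complexes), a TATA box (TATATAA) and GC boxes (GGGCGG), each searched on both strands.

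Cdc25b (chr3:138859923-138860172, plus strand): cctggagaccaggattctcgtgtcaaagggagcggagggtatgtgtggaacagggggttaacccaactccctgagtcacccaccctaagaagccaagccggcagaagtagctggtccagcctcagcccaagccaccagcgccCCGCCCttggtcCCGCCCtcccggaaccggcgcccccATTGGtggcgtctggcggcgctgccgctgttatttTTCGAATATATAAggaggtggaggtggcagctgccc

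The window held 1 TATA box match, whose first base lay 30 bases before the table's start, directly behind 1 CHR-type match at 36 bases. It also held 1 CCAAT box at 71 bases and 2 GC boxes, and no E2F-type match (TTTGGCGC or TTTCGCGC). A GATA-type site (AGATAA or TGATAA) was searched as well and had 0 matches. Of all 33469 rat promoters in windows of the same length, 34.0% held a CCAAT box, 17.4% a CHR-type element, 0.636% an E2F-type site, 3.42% a TATA box and 30.5% a GC box. A GATA-type site was held by 16.9%. These are matches of letters and not measured sites.

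The arrays were alike in scale, with array medians of 5.93 to 6.11 log2 units, apart from the final array of tumor 09I1. Across probe sets its median correlation with the other arrays was 0.938, against 0.975 to 0.984 for the other 9, and the 3′ minus 5′ difference of its beta-actin control probe sets was 2.61, where the others had 0.72 to 0.96. Means that move by much without 09I1 are given with and without it. All 16 luminal epithelial markers were above the intensity filter. Their mean level lay at 9.74 to 10.24 in basal and 9.56 to 10.17 in final samples. All 11 fibroblast and all 11 macrophage markers also passed the filter, so passing it does not check the tissue. The mean also hides dim luminal markers, such as Foxa1 with a basal mean of 4.15, near the lower quartiles of the arrays. In RNA from whole tissue, fewer cells of a type and less RNA per cell cannot be told apart.

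Cdc25b was lower after adriamycin in every tumor. On the log2 scale used throughout, its level (probe set 1370034_at) went from 8.61 to 6.74 in 09I1, from 8.85 to 7.42 in 11D2, from 9.51 to 7.07 in 12I1, from 7.99 to 5.63 in 29I1 and from 6.71 to 5.15 in 43D1. The groups overlap, since the basal sample of 43D1 lay below 3 of the final samples, but no pair of samples of 1 tumor does. Changes for the tumors in this order were -1.88, -1.43, -2.43, -2.36 and -1.55. Basal samples averaged 8.33 ± 1.06 (SD, n = 5) and final ones 6.40 ± 0.97 (SD, n = 5), and the mean change was -1.93 ± 0.20 (SE, n = 5), that is 3.81-fold lower, with 2.69-fold to 5.41-fold in single tumors. The SD of the change over tumors was 0.46, at percentile 57.8 of all tested probe sets. In limma this change had an adjusted p of 0.311, the value behind the choice of the set, which does not pass 0.05.

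Expressed as a rank among all probe sets of an array, Cdc25b stood between percentiles 56.7 (43D1) and 90.1 (12I1) in basal samples and between 40.6 (43D1) and 65.6 (11D2) in final ones. Within each tumor its change was at percentile 0.44 for 11D2, 0.22 for 12I1, 0.34 for 29I1 and 1.42 for 43D1 of all changes measured there, where low percentiles are the most negative. In 09I1, where changes were wider (SD 0.89, against 0.47 to 0.58 in the other 4 tumors), it was at 3.24. Tumors differed in Cdc25b before any drug: the SD of 1.06 among basal samples was larger than that of 97.8% of tested probe sets. The order of the tumors was nearly the same at both times, with 12I1 and 11D2 at the top and 29I1 and 43D1 at the bottom.

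**Figure D1:**
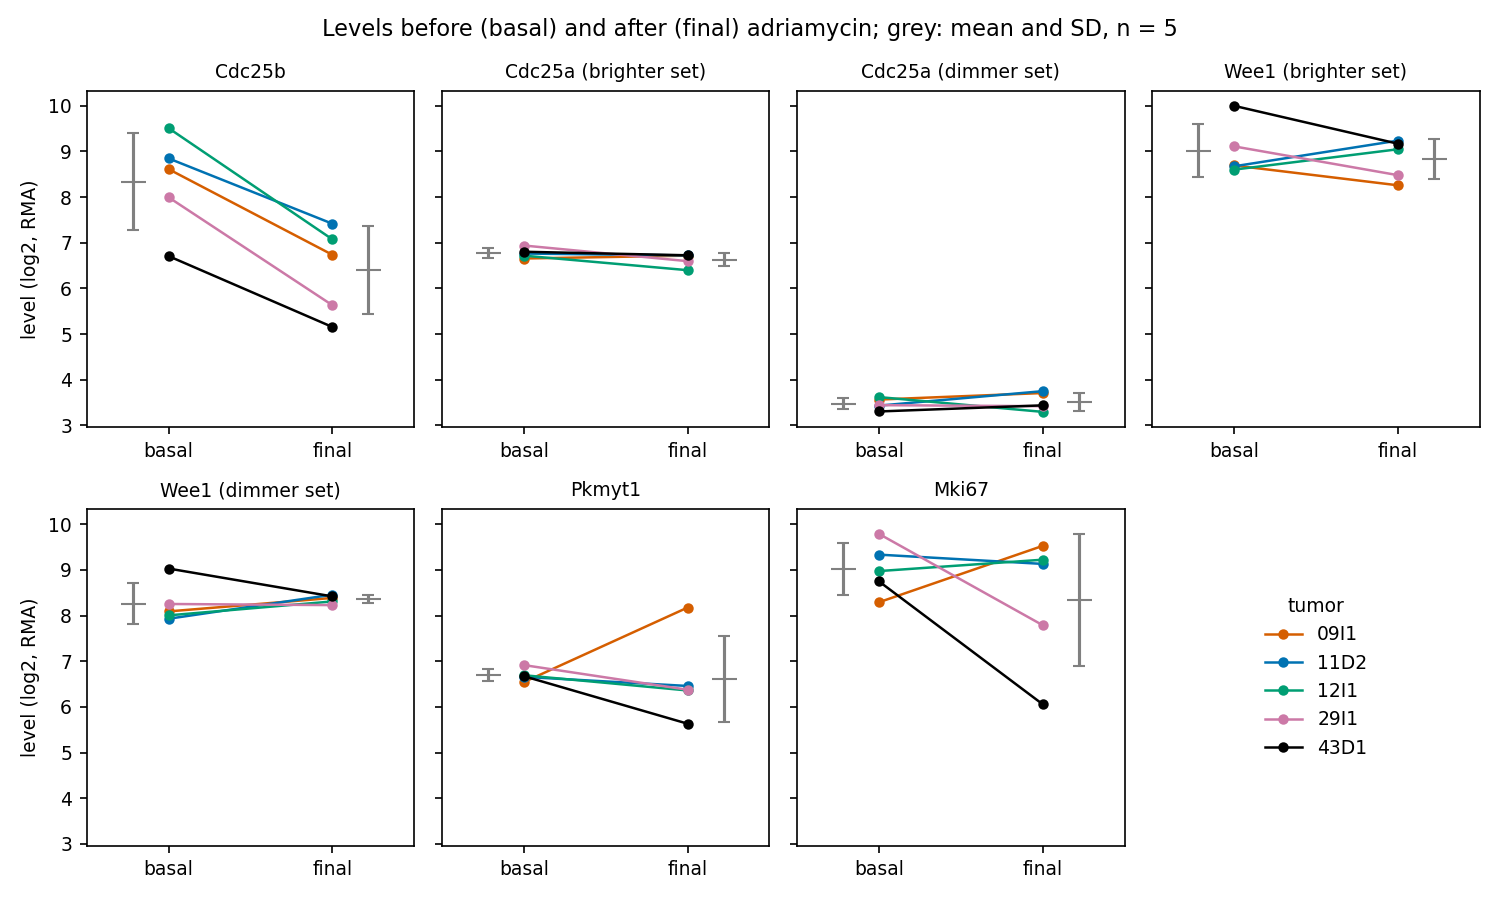
Level (log2, RMA) of each member probe set and of Mki67 in the basal and final sample of the 5 tumors, joined by tumor, with the mean and SD of each group in grey. The 5 lines of Cdc25b run downwards side by side, from a mean of 8.33 to 6.40, while those of Cdc25a are nearly flat and those of Pkmyt1 and Mki67 diverge.

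Its paralog Cdc25a took no such course. The brighter probe set (1387371_at) went from 6.65 to 6.72 in 09I1, from 6.76 to 6.72 in 11D2, from 6.72 to 6.40 in 12I1, from 6.94 to 6.60 in 29I1 and from 6.80 to 6.72 in 43D1. The groups overlap, basal samples averaging 6.77 ± 0.11 (SD, n = 5) and final ones 6.63 ± 0.14 (SD, n = 5). The mean change was -0.14 ± 0.15 (limma SE), negative in 4 of 5 tumors. The tumors also differed little in Cdc25a, since only 9.62% of tested probe sets had a smaller SD among basal samples. The second probe set (1375683_at) lay below the lower quartile of all 10 arrays, at 3.31 to 3.62 in basal and 3.30 to 3.75 in final samples, and was left out of the fit as too dim. Its mean change was 0.05, so the probe sets of Cdc25a gave opposite signs, both with a size below 0.35 in every tumor. Set tumor by tumor against the brighter probe set, the change of Cdc25b was lower by 1.39 to 2.12 log2 units, with a mean difference of -1.79 ± 0.33 (SD, n = 5).

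Wee1, the nuclear kinase that opposes Cdc25, differed in direction between tumors. Its brighter probe set (1397409_s_at, whose suffix marks probes that match more than 1 transcript) went from 8.69 to 8.26 in 09I1, from 8.67 to 9.23 in 11D2, from 8.60 to 9.05 in 12I1, from 9.11 to 8.48 in 29I1 and from 9.997 to 9.17 in 43D1. Its other probe set (1370663_at) went from 8.09 to 8.39, from 7.93 to 8.46, from 8.003 to 8.31, from 8.25 to 8.23 and from 9.03 to 8.42 in the same order of tumors. Both probe sets were higher in the final samples of 11D2 and 12I1 and lower in those of 29I1 and 43D1, and they disagreed in 09I1, with -0.43 and 0.30. Both groups overlap in each. The mean changes were -0.18 ± 0.24 and 0.10 ± 0.19 (limma SE). With both probe sets, the basal sample of 43D1 was the highest of all 10 arrays in Wee1, and that tumor was the lowest of the basal samples in Cdc25b. At the dimmer probe set the spread between tumors was 0.45 (SD, n = 5) before and 0.09 (SD, n = 5) after treatment, because the final samples lay between 8.23 and 8.46. The brighter probe set had SDs of 0.58 and 0.44, so a narrowing of this size was seen with the dimmer probe set only.

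Pkmyt1 (1392626_at), the gene of the membrane-bound kinase, varied little among basal samples and widely among final ones. It went from 6.54 to 8.17 in 09I1, from 6.66 to 6.46 in 11D2, from 6.69 to 6.36 in 12I1, from 6.92 to 6.38 in 29I1 and from 6.67 to 5.63 in 43D1. In 4 tumors the final sample lay below every basal sample, and in 09I1 it lay above all others. Basal samples averaged 6.70 ± 0.14 (SD, n = 5) and final ones 6.60 ± 0.94 (SD, n = 5), and the mean change was -0.10 ± 0.37 (limma SE). That mean rests on the array that stood apart: without 09I1 it was -0.53, and the changes of the other 4 tumors were -0.20 to -1.04.

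Of the 5 member probe sets in the fit, 0 passed an adjusted p of 0.05, where 0.0% of all 23281 tested probe sets did. Without adjustment 935 of these had a p under 0.05. Cdc25b was the 1 member probe set of 5 that was lower in all tumors, which held for 3.4% of all probe sets, and none was higher in all, which held for 3.26%. A mean change of -1 or lower was found for 0.335% of probe sets, Cdc25b among them, and together with a negative sign in all 5 tumors for 0.202%. Since this comparison chose the set, nothing is read from these counts. Between Cdc25b and the opposing kinases the difference in change was -1.75 for the brighter and -2.03 for the dimmer Wee1 probe set and -1.83 for Pkmyt1, each negative in 5 of 5 tumors. It was smallest in 43D1 for all 3, at -0.72, -0.94 and -0.51. These differences, like those from Cdc25a and Mki67, hold the change by which Cdc25b was chosen. Nothing is therefore read from their sign.

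**Figure D2:**
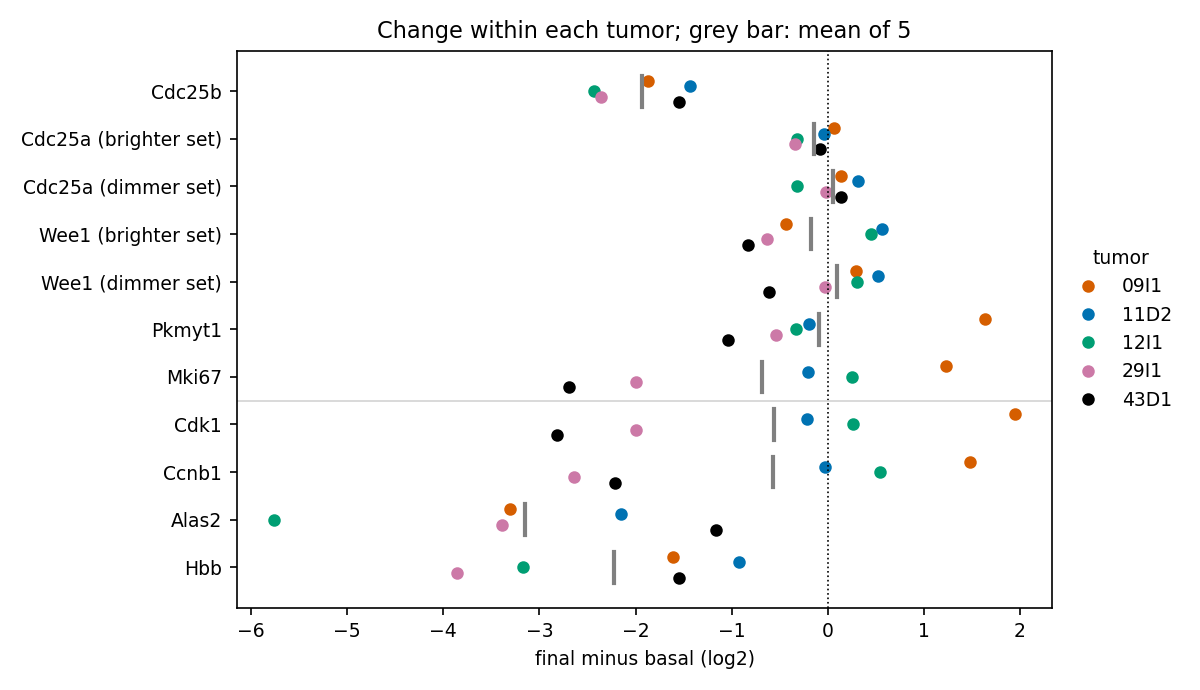
Final minus basal (log2) in each of the 5 tumors for the member probe sets and Mki67, and, under the line, for Cdk1, Ccnb1, Alas2 and Hbb, with the mean as a grey bar. Cdc25b lies between -2.43 and -1.43 in all tumors, whereas Mki67, Cdk1 and Ccnb1 spread on both sides of 0, and Alas2 and Hbb lie below 0 in all 5.

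Mki67 differed in direction between tumors. Its level went from 8.29 to 9.52 in 09I1, from 9.33 to 9.13 in 11D2, from 8.97 to 9.22 in 12I1, from 9.79 to 7.79 in 29I1 and from 8.75 to 6.06 in 43D1. Cdc25b was lower by 1.88 and 2.43 in the pair of tumors where Mki67 was higher (09I1 and 12I1). The Mki67 rise in 12I1 was only 0.25, at percentile 75.4 of the changes in that tumor. The rise in 09I1 rests on the array that stood apart. The mean change of Mki67 was -0.68 ± 0.56 (limma SE), and -1.16 without 09I1. Among final samples alone, 29I1 and 43D1 were the lowest in both genes, at 5.63 and 5.15 for Cdc25b and 7.79 and 6.06 for Mki67. The change of Cdc25b minus that of Mki67 was -3.11 for 09I1, -1.23 for 11D2, -2.68 for 12I1, -0.36 for 29I1 and 1.14 for 43D1. Its mean was -1.25 with an SD of 1.73, so the difference was smaller than its spread over tumors. Without 09I1 the mean was -0.78. The SD of the change over tumors was 0.46 for Cdc25b, 1.62 for Mki67 and 1.02 for Pkmyt1. For Pkmyt1 the difference in change from Mki67 had the smallest spread of the member probe sets (SD 0.95, n = 5), with values of 0.40 for 09I1, 0.0039 for 11D2, -0.58 for 12I1, 1.46 for 29I1 and 1.65 for 43D1. Over the 10 arrays, which are 5 pairs and not independent, Pearson's r with Mki67 was 0.69 for Pkmyt1, 0.61 for Cdc25b, 0.16 for the brighter probe set of Cdc25a and -0.10 for that of Wee1. Without the 2 arrays farthest from the member's median it was 0.40 for Cdc25b and 0.58 for Pkmyt1. Taken by group, r of Cdc25b with Mki67 was 0.03 over the 5 basal and 0.91 over the 5 final samples. For Pkmyt1 these were 0.89 and 0.71.

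None of the other genes of the pathway passed the threshold in limma. Among the kinases and cyclins that Cdc25 proteins act on, 0 of 12 tested genes passed, 9 had a negative mean change, and the median change was -0.27, beside 0.01 over all 12255 genes tested, of which 47.3% had a negative mean. That median was -0.96 without 09I1, and it turned positive without 29I1 (0.01) or without 43D1 (0.07). Cdk1, the mitotic kinase, went from 8.06 to 10.01 in 09I1, from 9.996 to 9.77 in 11D2, from 9.36 to 9.63 in 12I1, from 10.11 to 8.11 in 29I1 and from 9.15 to 6.34 in 43D1, so that it was far higher in the final sample of 1 tumor and far lower in those of 29I1 and 43D1. Its partner Ccnb1 (cyclin B1) had changes of 1.48, -0.03, 0.54, -2.64 and -2.21 in the same order. Ccnh, a subunit of the kinase that activates Cdk1, had a mean change of 0.19 ± 0.19 (limma SE), with 0.93 in 09I1 and a mean of 0.0065 without it. In the proliferation and mitosis list, 0 of 25 passed and all 25 had a negative mean, with list medians of 1.48 for 09I1, -0.14 for 11D2, 0.23 for 12I1, -1.91 for 29I1 and -2.18 for 43D1. The list had a median change of -0.50. Leaving out 09I1 gave -1.04, leaving out 29I1 gave -0.09, and leaving out 43D1 gave -0.11. Cenpf, a kinetochore gene, had a mean change of -0.78 ± 0.47 (limma SE), and -1.16 without 09I1.

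Of the checkpoint and activating kinases upstream of Cdc25, 0 of 17 passed, 14 had a negative mean and the median was -0.18, with -0.25 without 09I1 and -0.02 without 43D1. Chek1, the kinase that marks Cdc25a for destruction, had changes of 1.99 for 09I1, -0.37 for 11D2, 0.21 for 12I1, -1.44 for 29I1 and -2.47 for 43D1. Its mean of -0.41 was -1.02 without 09I1 and 0.10 without 43D1. Plk1, which activates Cdc25c and marks Wee1 for destruction, had a mean change of -0.56 ± 0.47 (limma SE), with 1.24 in 09I1 and -1.94 in 29I1, and a mean of -1.01 without 09I1. Plk3 had a mean of 0.09, and -0.18 without 09I1, and Csnk2a1, a casein kinase subunit, one of -0.20, and -0.11 without 09I1. Of the 7 genes for 14-3-3 proteins, which hold phosphorylated Cdc25, 0 passed and the median was -0.05. Sfn, the epithelial and p53-induced member, had changes of 1.57, -0.14, -0.57, -0.09 and 1.03 in the order 09I1 to 43D1, so that it was lower in 3 of 5 tumors. Its mean of 0.36 was 0.06 without 09I1. Ywhag had a mean of -0.23, and -0.08 without 09I1.

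Among the genes that destroy or reset these enzymes the list medians were near 0, while some members had wide changes of opposite sign. Ube2c, a ubiquitin enzyme of the anaphase-promoting complex, ran from 2.08 in 09I1 to -2.66 in 43D1, and Cdkn3, a phosphatase of cyclin-dependent kinases, from 2.59 in 09I1 to -2.19 in 29I1. Cdc14a, another phosphatase, was at -2.16 in 09I1 and at 0.22 to 0.43 in the other 4 tumors. In the turnover list 0 of 15 passed, with a median of -0.04. Fbxo6, of an F-box protein, was higher in 5 of 5 tumors by 0.26 to 0.50 (mean 0.38 ± 0.11, limma SE, adjusted p = 0.977). Fzr1, an activator of the anaphase-promoting complex, had a mean of -0.26, and -0.37 without 09I1. Among opposing phosphatases and their inhibitors 0 of 13 passed; Ensa, which inhibits the phosphatase PP2A in mitosis, had a mean of 0.25 (0.17 without 09I1) and was higher in 5 of 5, and the PP2A subunit gene Ppp2r2a one of -0.13 and was lower in 5 of 5. Of the transcription factors at cell cycle promoters 0 of 25 passed, 18 had a negative mean and the median was -0.09, with -0.17 without 09I1 and 0.02 without 29I1. E2f2, an E2F family activator, lay at 7.63 to 8.30 in basal and 6.81 to 7.50 in final samples, with a mean change of -0.73 ± 0.18 (limma SE, adjusted p = 0.859) and a negative sign in 5 of 5 tumors. Foxm1, an activator of G2 genes, had changes of 1.48 in 09I1 and -1.46 in 29I1, with a mean of -0.27, which was -0.71 without 09I1 and 0.02 without 29I1. Foxo1 had a mean of 0.44, and 0.36 without 09I1. Cdkn1a, the p53-induced inhibitor of cyclin-dependent kinases, had a mean of 0.62 with -0.54 in 12I1 and 1.66 in 43D1.

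**Figure D3:**
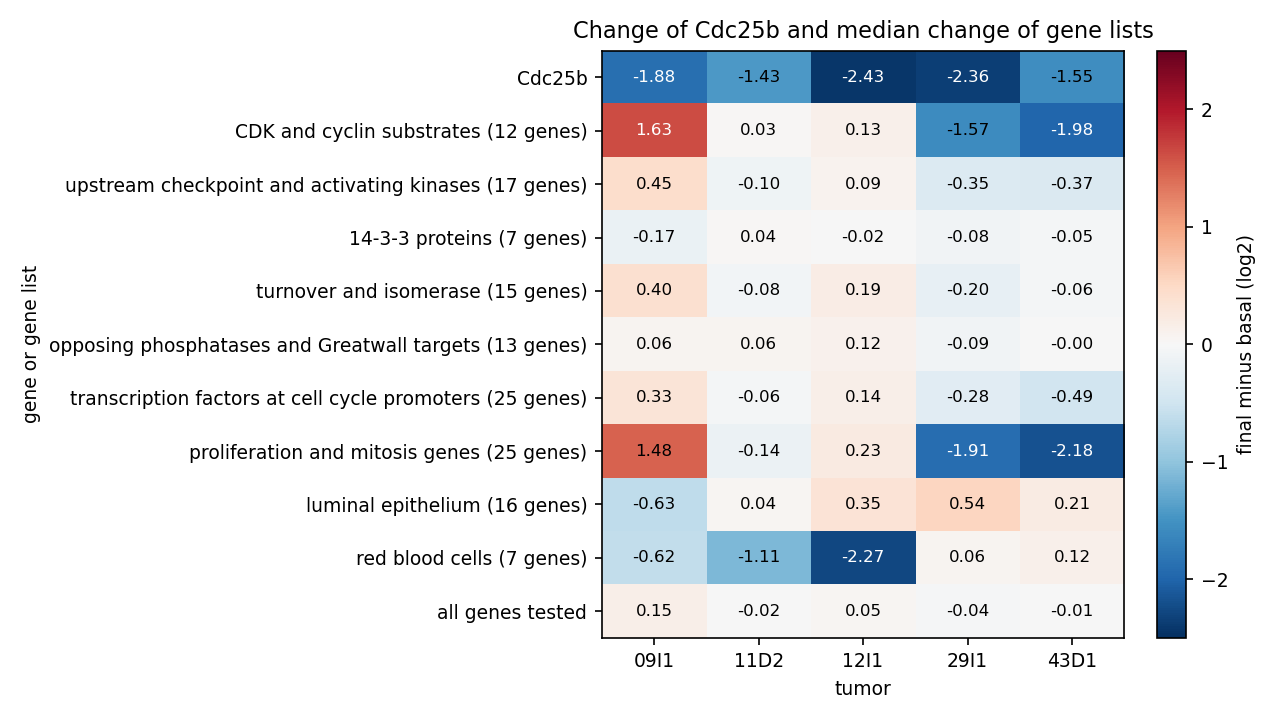
Change of Cdc25b (top row) and median change (final minus basal, log2) of 9 gene lists and of all genes tested, by tumor, with the value written in each cell. The lists of cyclin-dependent kinases and of mitosis genes turn from red in 09I1 (1.63 and 1.48) to blue in 43D1 (-1.98 and -2.18), while Cdc25b is blue in all 5 tumors.

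The 5 genes whose levels ran most like those of Cdc25b over the 10 arrays included 3 red cell genes. Among 12254 other genes the highest Pearson's r was that of Alas2, the erythroid enzyme of haem synthesis (0.94, and 0.93 without the 2 arrays farthest from the Cdc25b median). Then came the globin genes Hbb (0.93) and Hba-a3 (0.90), Ybx3 (0.88), a cold-shock domain protein, and Ube2o (0.88), a ubiquitin enzyme. Mki67 ranked 198th. Within the final samples 29I1 and 43D1 were the lowest in Cdc25b, Alas2, Mki67 and Cdk1 alike, so the order of tumors there does not set the red cell genes apart from the cell cycle genes. Among basal samples 29I1 was the highest in Mki67 and Cdk1 and the second lowest in Cdc25b and Alas2. Over the 5 basal samples r with Cdc25b was 0.97 for Alas2, 0.96 for Hbb, 0.03 for Mki67 and 0.01 for Cdk1. Over the 5 final samples these were 0.82, 0.86, 0.91 and 0.92. The coefficients over 10 arrays describe arrays that share tumors, and the shift between groups enters all of them.

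Alas2 went from 10.59 to 7.28 in 09I1, from 10.59 to 8.43 in 11D2, from 11.40 to 5.63 in 12I1, from 7.75 to 4.37 in 29I1 and from 5.87 to 4.71 in 43D1. Among basal samples it had the same order of tumors as Cdc25b. It was highest in 12I1, close together in 11D2 and 09I1, lower in 29I1 and lowest in 43D1. Hbb, the beta-globin, went from 14.12 to 12.51 in 09I1, from 14.15 to 13.22 in 11D2, from 14.26 to 11.09 in 12I1, from 13.06 to 9.21 in 29I1 and from 11.36 to 9.82 in 43D1. The final sample lay below the basal sample in every tumor for both genes. Hba-a3 had changes of -1.48 to -5.34, and Ube2o of -0.23 to -1.17, negative in 5 of 5 tumors each, and Ybx3 had changes of -0.76 to 0.02.

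**Figure D4:**
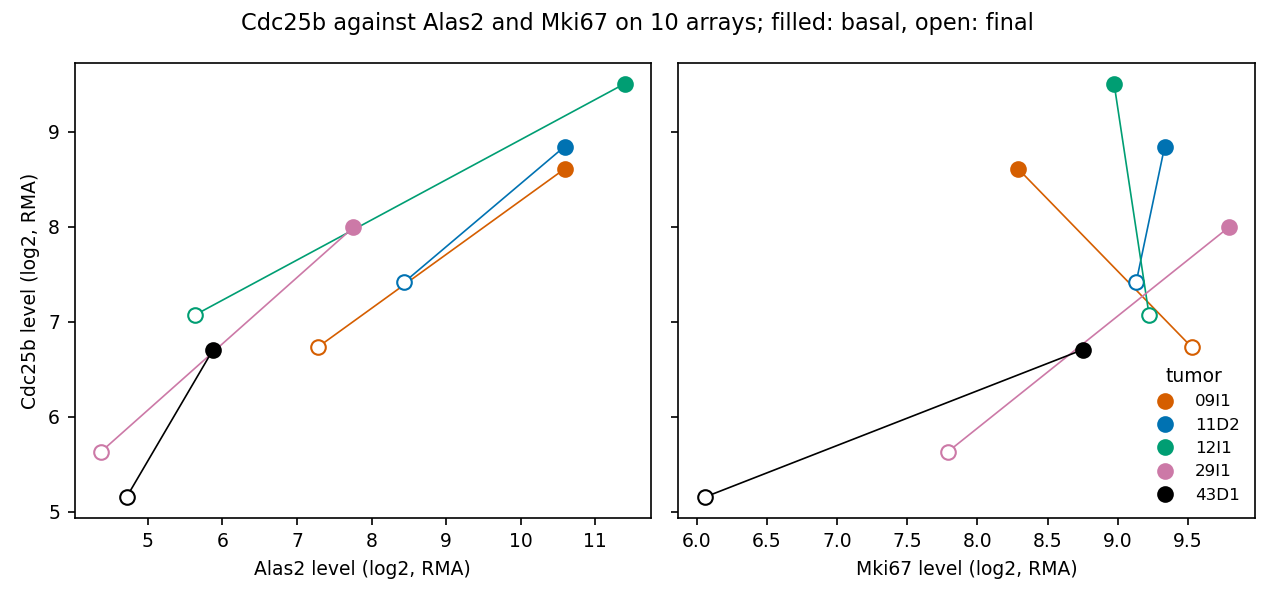
Level of Cdc25b (log2, RMA) against the level of Alas2 (left) and of Mki67 (right) on 10 arrays, filled for basal and open for final samples, joined by tumor. All 5 lines on the left run from upper right to lower left, and those on the right run in different directions. Cdc25b was chosen for its fall in all 5 tumors, and Alas2 for its likeness to Cdc25b. Nothing is therefore read from the common direction on the left.

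A change of -1 or lower in each of the 5 tumors was found for 7 probe sets (0.0301% of those tested). They were Cdc25b, Alas2, Hba-a3, a pair of probe sets shared by the beta-globins Hbbl1 and Hbb-bs, Npy, and 1 probe set with no gene name in the annotation (1375475_at). Cdc25b was chosen for being lower in all 5 tumors, so nothing is read from its place among these 7. The list of 7 red blood cell markers with a tested probe set had a mean level of 5.62 to 8.22 in basal and 5.24 to 6.68 in final samples, a median change of -0.90, and 0 members past the threshold. Its mean level followed Cdc25b over the 10 arrays with r = 0.91. By tumor the list's mean level differed by -0.85 for 09I1, -1.18 for 11D2, -2.61 for 12I1, -0.96 for 29I1 and -0.28 for 43D1, beside the -1.88, -1.43, -2.43, -2.36 and -1.55 of Cdc25b. In 29I1 and 43D1 the list's median change was 0.06 and 0.12, and only Alas2, Hbb and Ahsp, a chaperone of alpha-globin, were lower there. The other 4 markers lay between 3.71 and 5.43 on the arrays of those tumors, below the array medians. Rhd, a blood group gene, went from 3.91 to 3.98 in 29I1. The part of red cell RNA in the lower Cdc25b levels was not tested. For the other members, r with the red cell list was 0.21 for Cdc25a, 0.29 for Pkmyt1 and -0.41 for Wee1. The value for Wee1 hides a difference between the groups. Within the 5 basal samples the r of its brighter probe set was -0.998 with Hbb and -0.96 with Alas2. Within the 5 final samples these were 0.09 and 0.10.

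The other members had other neighbours over the 10 arrays. The brighter Cdc25a probe set ran most like S100a9 (r = 0.88), a gene of neutrophils and keratinocytes, Mab21l4 (0.81) and Mycl (0.79), and without the 2 arrays farthest from its median these were 0.82, 0.68 and 0.59. The brighter Wee1 probe set ran most like Syncrip (0.91), of an RNA-binding protein, Pdhb (0.90), of pyruvate dehydrogenase, and Mef2d (0.89), and these were 0.65, 0.71 and 0.61 without its 2 farthest arrays. Pkmyt1 ran most like the zinc finger gene Maz (0.99), Brcc3-ps7 (0.99) and Samd1 (0.98), and these were 0.89, 0.83 and 0.80 without its 2 farthest arrays. All 3 were high on the final array of 09I1, by 1.16, 1.18 and 1.45 over the basal sample, as Pkmyt1 was by 1.63. On that array the luminal markers were low, with a list mean of 9.56 against 10.24 before treatment. The part of that array's RNA in the Pkmyt1 value was not tested.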

How the data were processed

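The authors deposited log2 values from Affymetrix rat expression arrays, normalized by robust multichip averaging (RMA) per the labels and the design text; the software version is not given in the sources used here. The design text names a filter on control and dim signals, but the deposited table holds 57 control probe sets. After removal of control probe sets and of the dimmest 25% by mean over arrays, 23281 remained. These entered a paired model of final against basal (limma 3.58.1, R 4.3.3) that held each tumor as its block, since the labels give both samples of a tumor 1 code, and an intensity trend. Adjustment of p followed Benjamini and Hochberg (Benjamini-Hochberg) across every tested probe set. The script was tested on simulated data. Deviations from the group means of the paired samples correlated at -0.15 to 0.22, so the pairing rests on the labels.

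The members and gene lists were chosen with earlier results of these data known. A gene outside the set is represented by its brightest tested probe set. Named were Mki67, Cdk1, Ccnb1, Chek1, Plk1, Foxm1, Cdkn1a and Sfn, the gene with the smallest p in each direction of each pathway list, and the 5 genes most like Cdc25b and 3 most like each other member by Pearson's r. The red cell genes, Npy, the other globins, Ube2c, Cdkn3 and Cdc14a were added after their values were seen. The array has no detection calls here, and the number of arrays limits precision. Alternatives were no block, a random block, other filters and scalings, array weights, no trend, the methods' paired test and leaving out each tumor (for named genes outside the set, added after seeing the data). Figures were drawn with matplotlib 3.10.9.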

Additional observations from a re-analysis of the deposited data

Results flagged for a closer look

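Among 39 sets of 5 values (levels and changes of the member probe sets and of Mki67, and list medians), 2 had 1 tumor far from the other 4, and chance alone gives about 1.95. Neither concerns a member. The median change of the skeletal muscle markers was 4.73 in 11D2, against -0.01 to 0.45 in the other tumors, and Cdc25b had its smallest change there (-1.43). The median change of the endothelial markers was -0.60 in 29I1, against 0.02 to 0.26 in the others, and Cdc25b was at -2.36 in 29I1. Over the 10 arrays, r of Cdc25b with the mean level was -0.13 for the muscle and 0.18 for the endothelial list. A link of either list to Cdc25b was not tested.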

How the results depend on the processing

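No probe set passed an adjusted p of 0.05 in limma under any alternative run: 0 without the replicate block, with a random block, without a filter, with the lowest 50% left out, with either other scaling, with array weights, without an intensity trend, with the methods' paired test and without any 1 tumor. At an unadjusted p under 0.05 there were 935, 955 without the block, 465 with the lowest 50% left out, 2440 with array weights, 1869 without 09I1 and 606 without 11D2. The change of Cdc25b stayed between -1.78 (array weights) and -2.06 (without 11D2). That of Cdc25b minus Mki67 ran from -0.78 without 09I1 to -1.85 without 43D1. The small mean changes of Wee1, Pkmyt1 and the dimmer Cdc25a probe set had other signs in some settings: the brighter Wee1 set was at 0.06 with array weights, the dimmer one at -0.01 without 11D2, Pkmyt1 at 0.14 without 43D1 and the dimmer Cdc25a set at -0.01 with cyclic loess and -0.02 without 11D2. Their direction is therefore not settled; the cause was not tested. Of 423 values under alternatives, 419 stayed within the spread between tumors or within 1.5 times the count. Many of these could not move, so that count does not measure robustness. List medians are the same without the block, with a random block, without a trend and with the paired test. Counts of list members past the threshold stay at 0 where no probe set passes. Values whose sign changed were also counted among the 419 when they lay within that spread. Of 18 named genes outside the set, 3 (Plk3, Chek1 and Foxm1) had a mean of the other sign without 1 tumor, an alternative chosen after seeing the data. With 5 tumors, small changes cannot be measured, and the dim Cdc25a probe set gives only background-range values.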

Other observations

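Globin probe sets that the annotation assigns to several genes were all lower in the final sample of 5 of 5 tumors. The 3 shared by the alpha-globins Hba-a1 and Hba-a2 had mean changes of -1.69, -1.82 and -1.94, and their r with Cdc25b over the 10 arrays was 0.89, 0.90 and 0.90. The pair shared by Hbbl1 and Hbb-bs had mean changes of -2.76 and -2.39, with an r of 0.94 and 0.91.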
